A study of Mus musculus with 6 samples.

Results

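The genes described here are 35 genes of fatty acid oxidation in mouse liver: Ppara, which encodes the nuclear receptor PPAR-alpha, with mitochondrial, peroxisomal and microsomal oxidation genes, a ketone body gene and further genes that the receptor is known to drive. They were taken by symbol from the 32212 rows of a gene count table. All 35 were in the table, and all 35 passed the filter on low counts that left 13867 genes for testing. Poly(A) RNA from the liver of 2 yr old male C57BL/6 mice on normal chow was sequenced, from 3 wild type (WT) mice and from 3 mice lacking chromogranin A (CgA-KO), a protein of secretory granules in endocrine cells and neurons. There was 1 library per mouse. The comparison asks how the liver transcriptome of aged CgA-KO mice differs from that of aged WT mice. The targeted gene, Chga, had 0 counts in all 6 libraries, WT included, so its own transcript did not check the genotype labels. The labels give neither the time of day at collection nor whether the mice had been fed.

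Fatty acids enter oxidation as acyl-CoA esters. Carnitine carries long chains across the inner mitochondrial membrane, where each turn of the beta-oxidation spiral removes an acetyl-CoA and hands electrons to the respiratory chain. Very long chains are first shortened in peroxisomes, and cytochromes P450 of the Cyp4a family oxidise the far end of the chain in the endoplasmic reticulum. In liver, PPAR-alpha pairs with the retinoid X receptor, is activated by fatty acids and raises the transcription of genes at every one of these steps during fasting. The acetyl-CoA that results feeds the synthesis of ketone bodies, which other organs burn.

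Total counts ranged from 10558616 in WT replicate 1 to 31087453 in WT replicate 2, so that the level corresponding to 3 counts ranged from 0.0965 to 0.284 CPM (counts scaled to a common library total) over the libraries. Levels below are CPM scaled with TMM factors, which are computed so that most genes are level between libraries. The factor of WT replicate 2 was 0.756 and those of the other libraries lay between 0.935 and 1.12. Hepatocyte markers were abundant in every library, with a summed level of 53118 to 88758 CPM in WT against 44301 to 74909 CPM in CgA-KO livers over the 7 markers found in the table. Summed Kupffer cell and macrophage markers were 139 to 374 CPM in WT against 1379 to 1917 CPM in CgA-KO livers. In the edgeR test described below, 8 of these 9 genes (88.9%) were called higher in CgA-KO, against 8.60% of all genes. CgA-KO replicate 2 stood apart in blood cell markers, with neutrophil and marrow markers summing to 329 CPM, against 26.9 and 31.7 CPM in the other CgA-KO livers and 2.33 to 9.70 CPM in WT livers. Its lymphocyte markers summed to 77.5 CPM, against 28.0 and 18.9 CPM in the other CgA-KO livers and 2.85 to 26.5 CPM in WT livers. In bulk liver, fewer cells of a type and less RNA per cell cannot be told apart.

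With TMM scaling, most of the oxidation genes had lower means in CgA-KO livers, but few of the differences passed the test. In the quasi-likelihood test of edgeR, with p-values adjusted by the Benjamini-Hochberg method over the 13867 genes, 1 gene rose (Cyp4a10) and 2 fell (Acaa1b and Bdh1) at an adjusted p under 0.05. Those 3 were 8.57% of the 35, against 12.4% of all genes tested. By direction, 2.86% were called higher against 8.60% of all genes, and 5.71% were called lower against 3.84%. At an unadjusted p under 0.05 there were 11 of 35 (31.4%), against 29.1% of all genes. DESeq2 called 9 of the 35, against 2592 of the 15083 genes it tested. With limma-voom 4 of the 35 were called, against 1821 of 13867. At an adjusted p under 0.01, 0 of the 35 passed edgeR, against 360 of 13867.

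The log2 fold change, CgA-KO minus WT throughout, was negative for 29 of the 35 genes (82.9%) and positive for 6, while 49.4% of all genes were positive. Its median over the 35 was −0.33, against −0.01 over all genes. The range ran from −1.48 for Acaa1b to 1.53 for Pdk4. In 15 genes (42.9%) every CgA-KO library lay below every WT library, against 14.6% of all genes, and in 3 (8.57%: Cyp4a10, Cyp4a14 and Ehhadh) every CgA-KO library lay above, against 19.0%. In either direction 33.6% of all genes did not overlap. This split depends on the scaling. With library size alone, all genes together shifted to a median of 0.26 and the 35 genes to −0.05, 23 of the 35 were negative, and the genes without overlap became 4 lower (Acaa1b, Bdh1, Hadh and Acads; 11.4%, against 6.13% of all genes) and 4 higher (the same 3 and Etfdh; 11.4%, against 29.6%). The 35 lay 0.33 below the median of all genes on the log2 scale with TMM factors and 0.31 below it with library size alone.

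**Figure D1:**
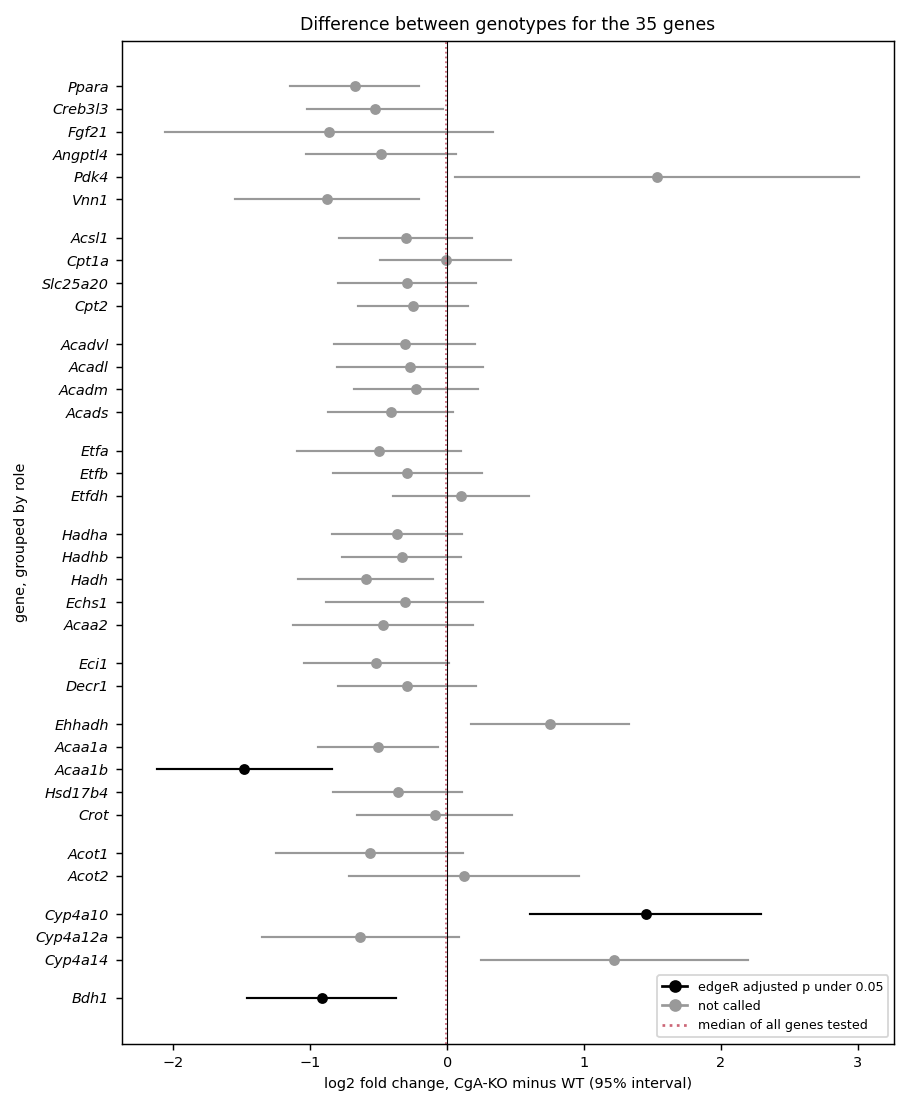
Log2 fold change (CgA-KO minus WT) of each of the 35 genes with its 95% confidence interval from edgeR, grouped by role. Most points lie left of zero; Acaa1b (−1.48) and Bdh1 (−0.92) were called lower and Cyp4a10 (1.45) was called higher.

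The summed level of the 35 genes hardly separated the genotypes, at 9034 to 10422 CPM in WT against 8347 to 10467 CPM in CgA-KO livers. Cyp4a10 and Cyp4a14 alone made up 17.3%, 6.53% and 9.22% of the counts of all 35 genes in WT replicates 1 to 3, and 27.2%, 35.1% and 24.3% in CgA-KO replicates 1 to 3. Without that pair, the other 33 genes summed to 8201 to 9490 CPM in WT and to 6078 to 7017 CPM in CgA-KO livers. These ranges did not overlap with TMM factors but did with library size alone (7178 to 9121 and 6817 to 7599 CPM). The pair was left out because it was higher in CgA-KO in these same libraries, so the lower remainder is a description and no test. Of the remainder, Acaa1b alone gave 1585, 1027 and 1059 CPM in WT and 339, 484 and 492 CPM in CgA-KO livers.

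**Figure D2:**
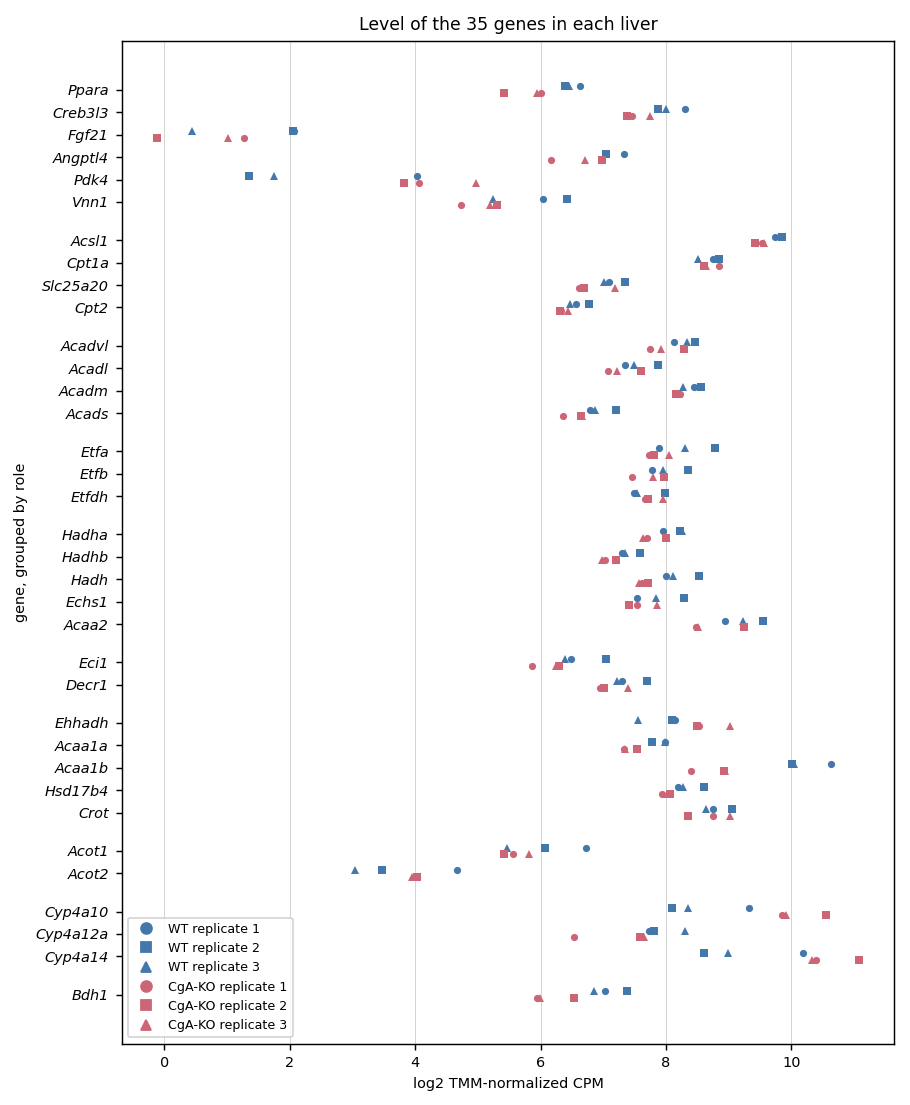
Level of each of the 35 genes as log2 of TMM-normalized CPM in the 3 WT and 3 CgA-KO livers, one point per library with a shape for each replicate, grouped by role. The CgA-KO points of Acaa1b, Bdh1 and Ppara lie below all WT points and those of Cyp4a10, Cyp4a14 and Ehhadh above them (with library size alone Ppara overlaps), while the points of most mitochondrial genes lie close together.

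Ppara (chromosome 15, 85734983 to 85802819 in GRCm38) stood at 99.0, 83.8 and 87.3 CPM in the WT livers and at 64.4, 42.8 and 61.7 CPM in the CgA-KO livers. The genotypes did not overlap on this scale, but they did with library size alone. The means were 90.0 ± 7.96 (SD, n = 3) and 56.3 ± 11.8 (SD, n = 3), a log2 fold change of −0.68 (SE 0.209, 95% confidence interval −1.15 to −0.20). The edgeR adjusted p was 0.0666, so the receptor gene was not called, whereas DESeq2 gave an adjusted p of 0.0225. With library size alone the log2 fold change of Ppara was −0.42 and the edgeR adjusted p 0.298. Among 12 other receptors, partners and coregulators of the pathway, 0 were called by edgeR, DESeq2 or limma-voom, against 12.4% of all genes in edgeR. In edgeR, 2 of the 12 (16.7%) had an unadjusted p under 0.05, against 29.1% of all genes.

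The other 5 genes of this group encode regulators and secreted or signalling proteins, and 0 were called by edgeR, against 12.4% of all genes. With Ppara included, 4 of the 6 (66.7%) had an unadjusted p under 0.05, against 29.1% of all genes. The most abundant was Creb3l3, a liver transcription factor that works with PPAR-alpha, with a mean of 268 CPM in WT against 186 CPM in CgA-KO livers and an edgeR adjusted p of 0.149. Angptl4, a secreted inhibitor of lipoprotein lipase, and Vnn1, a pantetheinase that releases the vitamin part of coenzyme A, also had negative log2 fold changes, of −0.49 and −0.88, as did 4 of these 5 genes in all. The Vnn1 libraries overlapped between genotypes, and its adjusted p was 0.0881 in edgeR and 0.042 in DESeq2. Fgf21, the fasting hormone, was at most 4.21 CPM in any library. The exception was Pdk4, a kinase that inhibits the pyruvate dehydrogenase complex, which is described here because of its values. Pdk4 stood at 16.3, 2.55 and 3.35 CPM in WT and at 16.7, 14.2 and 31.4 CPM in CgA-KO livers. WT replicate 1 lay inside the CgA-KO range. The log2 fold change was 1.53 (SE 0.652) with an edgeR adjusted p of 0.158, and without WT replicate 1 it was 2.85 with an adjusted p of 0.00315. In limma-voom the log2 fold change of Pdk4 was 2.15, with an adjusted p of 0.0365.

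The mitochondrial oxidation genes held no edgeR call, and their shared negative sign depended on the scaling. Their 95% confidence intervals reached down to −1.12 (Acaa2), so the lack of calls does not show that levels were equal. This group holds 18 genes for fatty acid activation and the carnitine shuttle, the acyl-CoA dehydrogenases, electron transfer, the later steps of the spiral and the enzymes for unsaturated acids. Of these, 0 were called by edgeR, against 12.4% of all genes, and 1 (Hadh, 5.56% of the 18) had an unadjusted p under 0.05, against 29.1%. DESeq2 called Hadh and limma-voom called 0. Log2 fold changes ran from −0.59 (Hadh) to 0.10 (Etfdh) with a median of −0.31, and 17 of 18 were negative. In 7 of the 18 every CgA-KO library lay below every WT library (38.9%, against the 14.6% of all genes given above). Their summed level was 4638 to 6042 CPM in WT against 3959 to 4439 CPM in CgA-KO livers. With library size alone the median was −0.02, against 0.26 over all genes, and 12 of 18 were negative. On that scale 2 of 18 (Acads and Hadh; 11.1%, against 6.13% of all genes) lay lower without overlap. The sums overlapped, at 4569.7 to 4908 CPM and 4439 to 4887 CPM. With either scaling the median of the 18 lay below that of all genes.

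Acsl1, which turns long-chain acids into acyl-CoA, was the most abundant gene of the entry steps at 900.2 ± 43.0 CPM (SD, n = 3) in WT and 730 ± 38.0 CPM (SD, n = 3) in CgA-KO livers. Its log2 fold change was −0.30. Cpt1a, the rate-setting carnitine palmitoyltransferase of the outer membrane, had means of 418 and 415 CPM and a log2 fold change of −0.01 (95% confidence interval −0.49 to 0.47). Its sign turned with the scaling, at 0.26 with library size alone. The translocase Slc25a20 and the inner membrane transferase Cpt2, which complete the carnitine shuttle, had log2 fold changes of −0.29 and −0.25. Of the 4 acyl-CoA dehydrogenases, Acadm, which takes medium chains, was the most abundant, with 345 ± 33.2 CPM in WT against 295 ± 6.15 CPM in CgA-KO livers (SD, n = 3 each). The others, Acadvl for very long, Acadl for long and Acads for short chains, had log2 fold changes of −0.31, −0.27 and −0.41. Their electrons pass to the flavoprotein encoded by Etfa and Etfb and then to ubiquinone through the product of Etfdh. Etfa stood at 331 ± 101 CPM in WT against 234 ± 28.3 CPM in CgA-KO livers (SD, n = 3 each), and WT replicate 2 was its highest library.

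In the later steps, Echs1 encodes the hydratase and Hadh the dehydrogenase for short chains. Hadh, described because it alone of the 18 had an unadjusted p under 0.05, stood at 256, 367 and 276 CPM in WT and at 196, 209 and 191 CPM in CgA-KO livers. The genotypes did not overlap, and the log2 fold change of −0.59 had an adjusted p of 0.109 in edgeR and 0.0335 in DESeq2. The isomerase Eci1 and the reductase Decr1, which handle double bonds, had log2 fold changes of −0.52 and −0.29. The thiolase Acaa2, the last step of the spiral, stood at 614 ± 128 CPM in WT against 443 ± 143 CPM in CgA-KO livers (SD, n = 3 each), a difference that did not pass the test.

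Hadha and Hadhb encode the 2 subunits of the trifunctional protein, which carries out the later steps for long chains. They lie head to head on chromosome 5, and the stretch between their annotated starts is shown because a single short region separates them. It is 85 bases long (GRCm38.p6, plus strand, chr5:30155163-30155247), with a GC content of 69.4%.
Hadha and Hadhb: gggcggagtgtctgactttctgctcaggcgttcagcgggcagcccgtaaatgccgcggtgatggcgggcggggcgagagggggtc
The ratio of Hadha to Hadhb CPM was 1.57 to 1.87 in WT and 1.57 to 1.72 in CgA-KO livers, so the pair kept overlapping proportions in both genotypes.

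The peroxisomal genes held the largest fall among the 35. Acaa1b (chromosome 9, 119148023 to 119157093), a peroxisomal thiolase that releases acetyl-CoA from the chain, stood at 1585, 1027 and 1059 CPM in WT and at 339, 484 and 492 CPM in CgA-KO livers. No CgA-KO library reached the lowest WT level. The means were 1224 ± 314 and 438 ± 86.3 CPM (SD, n = 3 each), 2.79-fold lower in CgA-KO, with a log2 fold change of −1.48 (SE 0.283) and an edgeR adjusted p of 0.0138. Per kilobase of exon, Acaa1b was the most abundant of the 35 genes in WT livers at 624 CPM per kb and fell to 223 CPM per kb in CgA-KO livers. Without WT replicate 3 or without CgA-KO replicate 1 the edgeR adjusted p of Acaa1b rose to 0.0521 and 0.0563.

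The close copy Acaa1a lies on the same chromosome, 182582 bases away, and is identical to Acaa1b at 96.5% of 1275 coding bases. The stretch of 60 coding bases with the most differences is shown as an example of where reads can tell the genes apart. Capitals mark the 11 bases that differ, at coding bases 259 to 318 of both genes.
Acaa1a: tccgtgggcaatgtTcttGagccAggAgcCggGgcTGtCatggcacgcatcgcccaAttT
Acaa1b: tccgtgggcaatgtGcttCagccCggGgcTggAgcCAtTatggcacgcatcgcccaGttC
Elsewhere the copies share long runs, and 45.7% of the 31-base words of Acaa1b transcripts also occur in Acaa1a. How reads were divided between them rests on the quantification, so single values are uncertain.

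Acaa1a stood at 252, 219 and 253 CPM in WT and at 161, 186 and 162 CPM in CgA-KO livers. These did not overlap either, except with library size alone, and the log2 fold change was −0.51 (SE 0.194) with an edgeR adjusted p of 0.122. DESeq2 called Acaa1a, with an adjusted p of 0.0241. The ratio of Acaa1b to Acaa1a was 6.29, 4.69 and 4.19 in WT and 2.10, 2.60 and 3.03 in CgA-KO livers. With the counts of the copies summed, an alternative added after the data were seen, the log2 fold change was −1.27 with an edgeR adjusted p of 0.0186, past the same threshold.

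Ehhadh, the peroxisomal enzyme that carries out the hydration and dehydrogenation steps just before this thiolase, is described because of its values. It stood at 283, 273 and 189 CPM in WT and at 369, 362 and 519.8 CPM in CgA-KO livers, with every CgA-KO library above every WT library. The log2 fold change was 0.75 (SE 0.256) with an edgeR adjusted p of 0.0892, and 1.01 with an adjusted p of 0.0391 under library size alone. Ehhadh was called by DESeq2 as well. The remaining peroxisomal genes were not called: Hsd17b4, the second bifunctional enzyme, had a log2 fold change of −0.36, and Crot, the carnitine octanoyltransferase that passes shortened chains on, had one of −0.09.

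The 250 bases before the annotated start of Acaa1b are shown because this gene fell furthest (GRCm38.p6, minus strand, chr9:119157094-119157343).
Acaa1b: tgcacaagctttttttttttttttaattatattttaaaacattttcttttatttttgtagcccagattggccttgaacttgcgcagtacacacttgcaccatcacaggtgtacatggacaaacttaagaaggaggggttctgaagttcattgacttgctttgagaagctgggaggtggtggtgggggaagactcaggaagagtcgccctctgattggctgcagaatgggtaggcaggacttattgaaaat
PPAR-alpha binds a direct repeat of a hexamer spaced by 1 base. In RefSeq windows from 250 bases before to 50 bases after each start, on both strands, AGGTCANAGGTCA occurred for 0 of the 27 members with a window and for 13 of 27025 symbols (0.0481%). The looser AGGNCANAGGNCA, which contains the first, occurred for 0 of the 27 and for 122 symbols (0.451%). The other 8 genes, for which windows were not used here, include all 3 Cyp4a genes, and so the 1 gene called higher, with Angptl4, Vnn1, Acaa2, Decr1 and Hsd17b4. The absence of these letters says only that they are not in these windows.

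**Figure D3:**
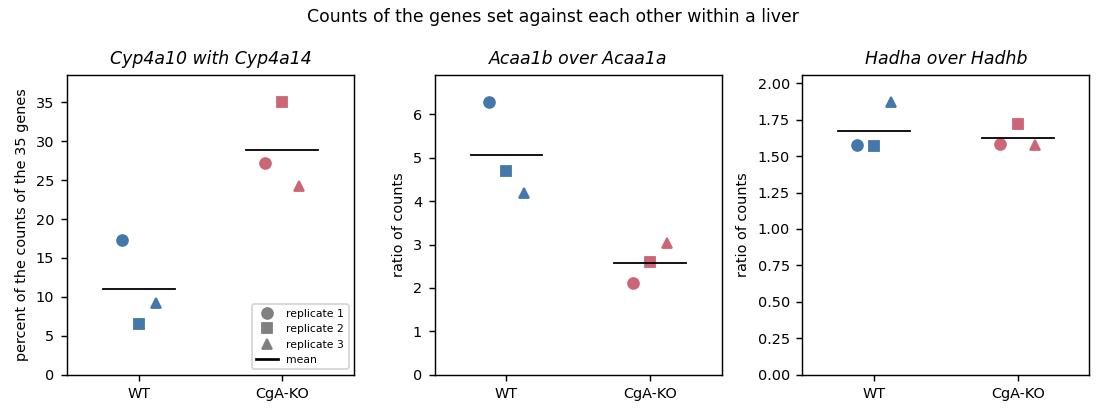
Left, Cyp4a10 and Cyp4a14 together in percent of the counts of the 35 genes, which both exceeded their WT levels in every CgA-KO liver; middle, the ratio of Acaa1b to Acaa1a counts; right, the ratio of Hadha to Hadhb counts, with one point per library and a line at the mean of each genotype. The Acaa1b to Acaa1a ratio runs from 4.19 to 6.29 in WT livers and from 2.10 to 3.03 in CgA-KO livers, while the Hadha to Hadhb ratio overlaps between genotypes.

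The omega-hydroxylases of the Cyp4a family split. Cyp4a10 and Cyp4a14 are the family members that respond most to PPAR-alpha activators in mouse liver, whereas Cyp4a12a is known as a male-biased gene. Cyp4a10 stood at 644, 272 and 327 CPM in WT and at 926, 1501 and 968 CPM in CgA-KO livers. Every CgA-KO library lay above every WT library. The means were 414 ± 200.4 and 1132 ± 320.3 CPM (SD, n = 3 each), 2.73-fold higher in CgA-KO, with a log2 fold change of 1.45 (SE 0.373) and an edgeR adjusted p of 0.0373.

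Cyp4a14 stood at 1159, 391 and 505 CPM in WT and at 1343, 2169 and 1281 CPM in CgA-KO livers. The genotypes did not overlap, although WT replicate 1 came near the lowest CgA-KO library. The log2 fold change was 1.22 (SE 0.432) and the edgeR adjusted p was 0.0985, against 0.0184 in DESeq2. Cyp4a12a stood at 212, 224 and 316 CPM in WT and at 92.9, 191 and 201 CPM in CgA-KO livers, with a log2 fold change of −0.63 (SE 0.318) and an edgeR adjusted p of 0.225. The ratio of Cyp4a10 to Cyp4a14 was 0.555 to 0.697 in WT and 0.689 to 0.756 in CgA-KO livers, and these ranges overlapped. Per kilobase of exon, Cyp4a14 was the most abundant of the 35 genes in CgA-KO livers at 614 CPM per kb, against 263 CPM per kb in WT livers.

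The 3 genes lie on chromosome 4, and Cyp4a10 (115518264 to 115533649) and Cyp4a14 (115486200 to 115496142) are 22121 bases apart. Their coding sequences are identical at 76.1% of bases, and the 60 coding bases with the most differences are shown to make plain how far apart this pair is. Capitals mark the 28 differing bases, at coding bases 632 to 691 of Cyp4a10 and 626 to 685 of Cyp4a14.
Cyp4a10: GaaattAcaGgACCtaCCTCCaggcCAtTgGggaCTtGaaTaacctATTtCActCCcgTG
Cyp4a14: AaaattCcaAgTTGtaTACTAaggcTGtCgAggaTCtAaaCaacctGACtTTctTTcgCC
Cyp4a14 shares little with other genes, and 2.07% of its 31-base words occur in another gene. Cyp4a10 is much closer to Cyp4a31 and Cyp4a32, with coding identities of 96.6% and 97.2%. The most divergent 60 coding bases of Cyp4a10 and Cyp4a31, bases 106 to 165, hold only 6 differences, in capitals.
Cyp4a10: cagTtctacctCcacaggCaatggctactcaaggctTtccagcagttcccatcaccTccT
Cyp4a31: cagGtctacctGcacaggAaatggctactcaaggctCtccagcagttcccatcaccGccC
In all, 44.9% of the 31-base words of Cyp4a10 occur in another gene, as do 62.2% of those of Cyp4a12a. Over the 35 genes, 12 share more than 10% of these words with another gene, Hadhb (62.1%) and Etfb (62.0%) among them, and 13 share 0. With Cyp4a10, Cyp4a31 and Cyp4a32 summed, the log2 fold change was 1.35 with an edgeR adjusted p of 0.0448. With Cyp4a12a and Cyp4a12b summed, it was −0.51 with an adjusted p of 0.317.

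WT replicate 1 stood apart in this family. It was over 1.5 times both other WT libraries in 5 of the 35 genes, which were Cyp4a10, Cyp4a14, Pdk4, Acot1 and Acot2. CgA-KO replicate 2 was over 1.5 times both other CgA-KO libraries in 3 genes, which were Cyp4a10, Cyp4a14 and Acaa2, and is the library with the highest neutrophil and lymphocyte markers, whose part in these levels was not tested. Without it the log2 fold changes were 1.22 for Cyp4a10, 0.97 for Cyp4a14 and −0.73 for Acaa2, with edgeR adjusted p-values of 0.105, 0.247 and 0.119. Without WT replicate 1, edgeR called 5 of the 35 genes, adding Cyp4a14 (log2 fold change 1.87, adjusted p 0.00969) and Pdk4 to the 3 above, and Cyp4a10 kept its call with an edgeR adjusted p of 0.00564. Leaving out WT replicate 2, WT replicate 3 or any 1 of the 3 CgA-KO libraries ended the Cyp4a10 call, with edgeR adjusted p-values of 0.0583 to 0.162 and log2 fold changes of 1.22 to 1.60.

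**Figure D4:**
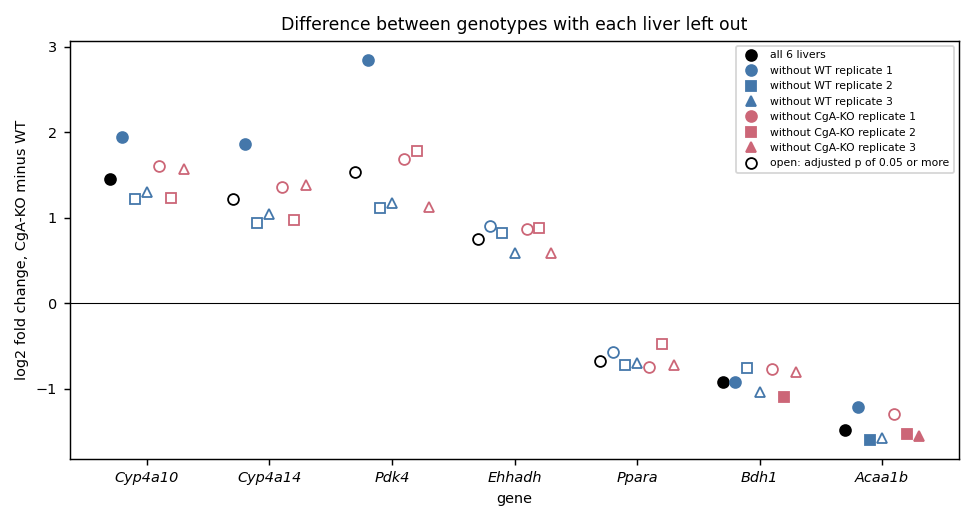
Log2 fold change (CgA-KO minus WT) of 7 of the genes in the fit on all 6 livers and in the fits that leave out each liver in turn, with open points for an edgeR adjusted p of 0.05 or more. Cyp4a10 (1.95), Cyp4a14 (1.87) and Pdk4 (2.85) lie furthest from zero without WT replicate 1, and none of the 7 changes sign.

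Bdh1, the mitochondrial enzyme that converts acetoacetate to the ketone body beta-hydroxybutyrate (chromosome 16, 31422280 to 31458901), stood at 130.1, 167 and 115 CPM in WT and at 61.5, 93.0 and 63.8 CPM in CgA-KO livers. The genotypes did not overlap. The means were 138 ± 26.9 and 72.8 ± 17.6 CPM (SD, n = 3 each), 1.89-fold lower in CgA-KO, with a log2 fold change of −0.92 (SE 0.240) and an edgeR adjusted p of 0.0393. The call was lost without WT replicate 2 (edgeR adjusted p 0.0933), WT replicate 3 (0.0894), CgA-KO replicate 1 (0.147) or CgA-KO replicate 3 (0.114), and with library size alone (0.0974).

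The thioesterases Acot1 and Acot2, which release free acids from acyl-CoA in the cytosol and in mitochondria, were not called. Acot1 stood at 106, 67.0 and 44.0 CPM in WT and at 47.3, 42.6 and 56.5 CPM in CgA-KO livers, with a log2 fold change of −0.56 (SE 0.301) and an edgeR adjusted p of 0.253. Acot2 stood at 25.4, 11.1 and 8.22 CPM in WT and at 16.4, 16.4 and 15.5 CPM in CgA-KO livers, with a log2 fold change of 0.12 (SE 0.371) and an edgeR adjusted p of 0.864. WT replicate 1 was the highest library for both. The copies are identical at 95.5% of coding bases, and their sum had a log2 fold change of −0.43 with an edgeR adjusted p of 0.402.

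Of 79 other genes of the pathway, 77 were tested and 8 (10.4%) were called by edgeR, 1 higher (1.30%, against 8.60% of all genes) and 7 lower (9.09%, against 3.84%). The gene that rose was Oxct1, which lets tissues burn ketone bodies and is scarce in hepatocytes. It stood at 4.66, 3.57 and 2.41 CPM in WT and at 15.2, 11.3 and 22.5 CPM in CgA-KO livers, and its log2 fold change was 2.22. Fabp1, the fatty acid binding protein of the liver cytosol, fell from 5035 ± 2278 to 1059.9 ± 371 CPM (SD, n = 3 each), a log2 fold change of −2.25. Nudt7, a peroxisomal hydrolase of coenzyme A, fell by 2.37 on the log2 scale. Cidea, a lipid droplet protein, fell by 3.06, and Bdh2, a cytosolic dehydrogenase, fell by 1.39. Cidea was scarce, at 7.70, 2.98 and 2.50 CPM in WT and at 0.279, 0.254 and 1.03 CPM in CgA-KO livers. The CgA-KO values rest on 6, 8 and 23 counts. Acsl3, an acyl-CoA synthetase, fell by 1.04, Acot3, a peroxisomal thioesterase, fell by 0.99, and Pex11a, which acts in peroxisome division, fell by 0.91. Leaving out CgA-KO replicate 3 moved Cidea to −3.98 and Nudt7 to −3.09, and leaving out WT replicate 1 moved Cidea to −2.37. Oxct1, Fabp1 and Acsl3 passed in every fit that left out 1 library, with edgeR adjusted p-values of at most 0.0329, 0.0466 and 0.0374. The other 5 lost their calls in 2 to 5 of those 6 fits, with edgeR adjusted p-values of up to 0.138: all 5 without WT replicate 3 or CgA-KO replicate 1, Acot3 and Pex11a without WT replicate 1, Acot3, Cidea and Nudt7 without WT replicate 2, Cidea, Nudt7 and Pex11a without CgA-KO replicate 2, and Acot3 without CgA-KO replicate 3. With library size alone, Acot3 and Pex11a lost theirs, with edgeR adjusted p-values of 0.136 and 0.128.

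Other gene lists differed between the same libraries, and their part in the results above was not tested. The counts that follow stand against all genes tested, of which edgeR called 8.60% higher, 3.84% lower and 12.4% either way. An unadjusted p under 0.05 in edgeR was found for 29.1% of all genes. Of 16 clock genes, 4 were higher and 7 lower by edgeR, and their summed level was 816 to 1163 CPM in WT against 448 to 546 CPM in CgA-KO livers. Of 11 male-biased liver genes, which include Cyp4a12a, 4 were lower. The other 10 summed to 12987 to 29172 CPM in WT against 2141 to 9685 CPM in CgA-KO livers. Of these sums Mup20 alone, with an edgeR adjusted p of 0.143, gave 8415 to 19690 CPM and 906 to 8141 CPM. Of 6 female-biased genes tested, 5 were higher. All 10 female-biased genes in the count table summed to 9.49 to 11.8 CPM in WT and to 76.2 to 166 CPM in CgA-KO livers. Of these sums Cyp2b9, with an edgeR adjusted p of 0.0895, gave 9.05, 6.34 and 6.35 CPM in WT and 40.4, 65.0 and 3.18 CPM in CgA-KO livers. Summed stellate cell markers were 132 to 185 CPM in WT against 232 to 371 CPM in CgA-KO livers, with 2 of 5 higher. Lymphocyte markers (3 of 5) and neutrophil markers (2 of 3 tested) were also higher in part, with the highest sums in CgA-KO replicate 2, 1 of 5 endothelial markers was higher and 1 lower, and 0 of 4 bile duct markers were called by edgeR, DESeq2 or limma-voom, with 1 at an unadjusted p under 0.05.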

How the data were processed

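The authors quantified the reads with Salmon 1.4.0 at the transcript level against the GRCm38 mouse transcriptome and deposited whole-number counts per gene symbol for the 6 libraries. The step from transcripts to genes is not given in the sources used here. The table was not scaled for library size, and 0 columns were left without a sample.

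Low counts were removed with filterByExpr (minimum count 10), and genotypes were compared with the two-sided quasi-likelihood test of edgeR 4.0.16 (R 4.3.3), using TMM scaling and robust dispersions. All p-values were adjusted by the Benjamini-Hochberg method across the whole table. DESeq2 1.42.0, voom of limma 3.58.1, other scalings, other filters, a replicate block and leaving out each library were alternatives. The script was tested on simulated data. Levels corresponding to 3 counts cover counting error only. Lengths and coordinates are from GENCODE vM21, and promoter windows from RefSeq (GRCm38.p6), read with Biopython 1.88.

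The 35 genes and the lists were chosen with earlier results of these data known. Values in every library are given for Ppara, called genes and near-identical paralogs. Other genes are given by range, with the most abundant gene of a role as the example, unless stated. Called genes of the wider pathway are named.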

Additional observations from a re-analysis of the deposited data

How the results depend on the processing

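edgeR called 1726 genes. DESeq2 called 2592, a threshold of 0.01 left 360, and leaving out 1 library gave 394 to 2126. Of the 35 genes, 1 was called higher, against 3 with DESeq2, 2 with limma-voom, 2 with library size alone, 0 with a replicate block, 0 at a threshold of 0.01 and 0 to 3 without 1 library. There were 2 called lower, against 6 with DESeq2, 1 with library size alone, 0 at 0.01 and 0 to 2 without 1 library. In the wider pathway, 1 was called higher, against 3 with DESeq2, 3 with library size alone and 1 to 2 without 1 library, and 7 lower, against 13 with DESeq2, 1 at 0.01 and 2 to 6 without 1 library. The median log2 fold change of the 35 was −0.05 with library size alone and −0.40 to −0.24 without 1 library. The share of calls that were higher was 69.1%, against 86.6% with library size alone and 55.8% without WT replicate 2.

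Signs turned for uncalled genes. With library size alone, Cpt1a was at 0.26, Cpt2 at 0.0272, Acadl at 0.0266, Acadm at 0.0453, Etfb at 0.0048 and Crot at 0.19. Cpt1a was also at 0.0466 with upper-quartile factors, at 0.0244 with at least 10 counts in every library and at −0.10 to 0.0744 without 1 library. Without 1 library Crot ranged from −0.23 to 0.11 and Acot2 from −0.18 to 0.77. The sum of Acot1 and Acot2, chosen after seeing the data, was at −0.43; it is mostly Acot1 and is no value of Acot2 alone. Leaving the summed counts out, 525 values of single genes under an alternative were compared. Of these, 483 kept direction and side of the threshold, 16 were no longer past it, 10 newly passed it and 16 changed sign. Most of the 525 values belong to genes not called in the main fit. All 16 losses fell on the 3 called genes, over 15 alternatives each: 3 for Acaa1b, 6 for Bdh1 and 7 for Cyp4a10. The cause of these changes was not tested.

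The deviations of WT and CgA-KO libraries with the same replicate number from their genotype means correlated across genes at 0.199, 0.0127 and −0.0659. Libraries with different numbers gave −0.264 to 0.234. The labels do not say that the numbers pair libraries, and with 3 libraries per genotype these values cannot settle it. The main fit used no pairing. With the replicate block, 1498 genes were called and Cyp4a10 was at 1.52 with an edgeR adjusted p of 0.0557. The other calls among the 35 were unchanged with the block. Depth sets the lowest level seen, and Fgf21, at 0.920 to 4.21 CPM, lay nearest to it among the 35.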
